A study of Malus domestica with 12 samples.

Results

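The class II small heat shock proteins (HSPs) of apple peel were followed through 3 transcripts of Malus domestica 'Granny Smith': MDP0000700383, which belongs to HSP17.6CII (MD15G1053800, chromosome 15), and MDP0000188935 (MD08G1068000) and MDP0000362505 (MD08G1068200), both on chromosome 8. They are 3 of the 66935 transcripts named on the array and account for 3 sense probes of its 133709 probes other than controls, and each also has 1 antisense probe, named with the ending _r. The members were selected on the contrast described here, since the study listed them among the transcripts that differed between high and low scald peel. Their ratios are therefore a description without a test, and their direction is no independent evidence. All 3 sense probes and all 3 antisense probes were found and measured on every array, and no probe was lost to a filter.

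Small HSPs are chaperones that work without ATP. They hold unfolding proteins in a soluble state until ATP-dependent chaperones such as HSP70 and HSP101 refold them. Class II members act in the cytosol, and their genes are nearly silent in unstressed vegetative tissue of most plants and strongly induced by heat through heat shock transcription factors (HSFs). Superficial scald is a browning of apple skin that appears after cold storage, and the peel was taken at harvest, before any symptom.

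High scald peel came from the harvests 2015-P24, 2015-P31 and 2017-R11, and low scald peel from 2014-P24 and 2014-P36, where P24, P31 and P36 are orchard plots and R11 is the sample that GEO labels as plot 31b. The plots follow those labels and the array methods of the study, whose plant material text names the 2014 and 2015 orchards P31 and P36 the other way round. All fruit was wild-type 'Granny Smith' from one experimental station, picked at early maturity, and each of the 5 peel samples pooled 20 fruit. On 6 Agilent 2-colour arrays, the samples met in 3 comparisons of high with low scald peel, each run on 2 arrays with the dyes swapped. C1 paired 2015-P24 with 2014-P24. C2 paired 2015-P31 with 2014-P36. C3 paired 2017-R11 with 2014-P24. C1 and C3 share the 2014-P24 sample and a slide, and C2 lay on another slide. All high scald samples were harvested in 2015 or 2017 and all low scald samples in 2014, so scald and harvest year cannot be told apart. Fewer expressing cells and less RNA per cell cannot be told apart in such pooled tissue either, and the peel label was not checked against marker genes.

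Between 11.01% and 30.9% of the probes were well above background in a channel, meaning that at least 1 spot was brighter than its local background by over 2.6 times the SD of the background pixels. Both Cy5 channels of C2 were the dimmest, with 11.01% for 2015-P31 and 13.3% for 2014-P36. Between 1 and 194 probes per channel were saturated, that is, at the top of the scanner range.

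HSP17.6CII had the largest mean ratio of the 3 transcripts, and the largest ratio in C1 and C3, while in C2 that of MDP0000188935 was larger. The level, which is the log2 intensity of a channel after normalisation within and between arrays, was 10.58 and 10.83 in 2015-P24, 11.87 and 11.73 in 2015-P31 and 11.08 and 10.86 in 2017-R11. In low scald peel it was 15.21, 14.62, 15.02 and 14.53 in the 4 channels of 2014-P24 and 13.63 and 13.37 in 2014-P36. All 6 high scald channels lay below all 6 low scald channels, with 11.87 as the highest in high scald and 13.37 as the lowest in low scald peel. As a log2 ratio of high over low scald, the arrays gave -4.63 and -3.79 for C1, -1.76 and -1.64 for C2 and -3.94 and -3.68 for C3. The comparison means of -4.21, -1.70 and -3.81 correspond to levels 18.5-fold, 3.24-fold and 14.0-fold lower in the high scald sample. Over the 3 comparisons the mean log2 ratio was -3.24 ± 1.35 (SD, n = 3), or -4.01 without C2. As C1 and C3 share the 2014-P24 sample, the 3 comparisons behind this and every later SD with n = 3 are not independent.

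MDP0000188935 is one of the gene models matched to MD08G1068000, and its closest Arabidopsis protein is the same class II small HSP as for HSP17.6CII. Its level was 12.02 and 11.74 in 2015-P24, 12.52 and 12.39 in 2015-P31 and 12.32 and 11.91 in 2017-R11. The level was 16.20, 14.58, 15.82 and 14.81 in the channels of 2014-P24 and 14.33 and 15.01 in 2014-P36. High and low scald channels did not overlap, with a gap of 1.81. The arrays gave log2 ratios of -4.18 and -2.84 for C1, -1.81 and -2.62 for C2 and -3.49 and -2.90 for C3. The comparison means were -3.51, -2.21 and -3.20, and their mean was -2.97 ± 0.68 (SD, n = 3). Saturated spots affected 1 array each of C1 and C3, so this spread is not set against those of the other members.

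MDP0000362505, matched to MD08G1068200 and also a class II small HSP, was the only member with no saturated channel. Its level was 9.29 and 9.24 in 2015-P24, 9.89 and 9.64 in 2015-P31 and 9.79 and 9.34 in 2017-R11. Low scald peel had 12.31, 12.25, 12.39 and 12.44 in 2014-P24 and 11.23 and 11.23 in 2014-P36. The channels of the phenotypes were separated by a gap of 1.33. The arrays gave log2 ratios of -3.02 and -3.01 for C1, -1.33 and -1.58 for C2 and -2.59 and -3.10 for C3. The mean over comparisons was -2.44 ± 0.85 (SD, n = 3), which corresponds to a level 5.43-fold lower in high scald peel.

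**Figure D1:**
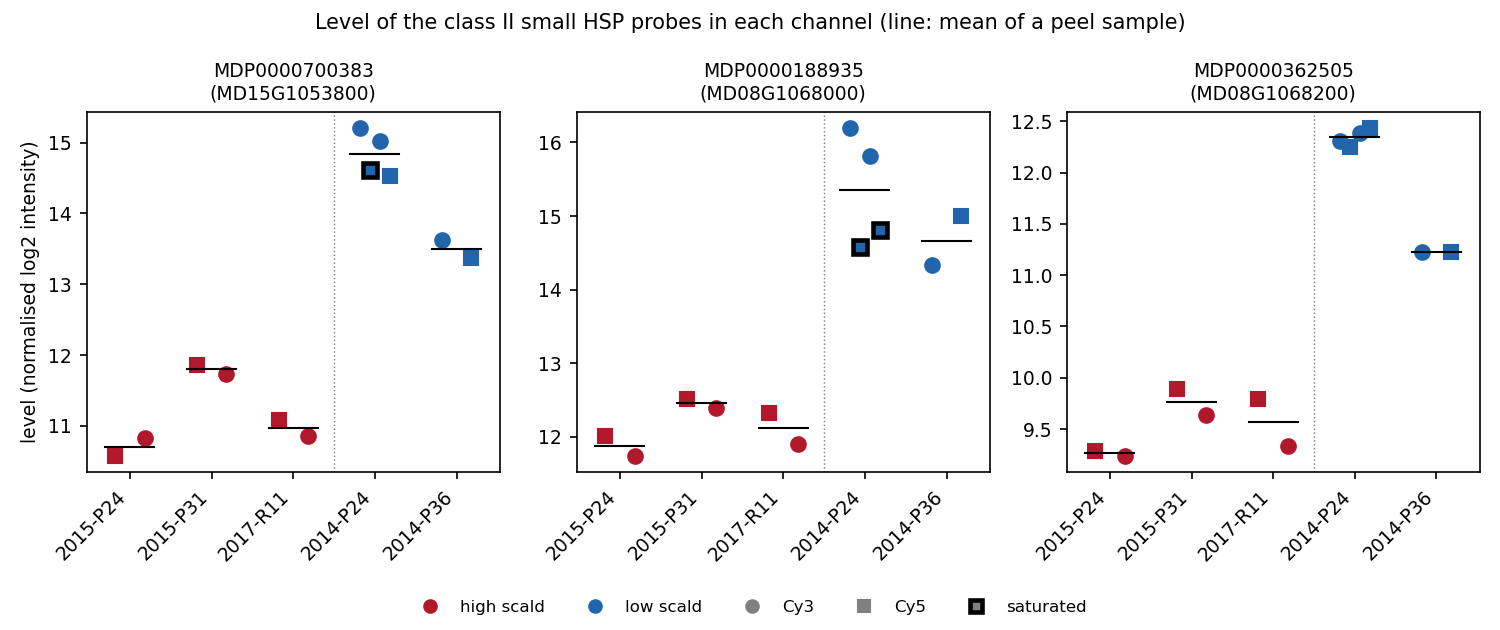
Level (normalised log2 intensity, a separate vertical axis for each probe) of the 3 sense probes in each channel of the 5 peel samples, with high scald samples in red and low scald samples in blue, Cy3 as circles, Cy5 as squares, saturated channels outlined in black, and a line at the mean of each sample. In each panel all 6 high scald channels lie below all 6 low scald channels, and 2014-P24 has the highest mean.

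Of the 3 members, 3 were lower in high scald on 6 of 6 arrays with a mean log2 ratio of -1 or less, a pattern shown by 222 of all 133709 probes (0.166%). As this contrast chose the members, nothing is read from that count. The same holds for their high and low scald channels that did not overlap, as the share of all probes with such channels was not counted. By mean log2 ratio they stood at ranks 6 (HSP17.6CII), 11 (MDP0000188935) and 31 (MDP0000362505) from the lowest of all probes. The limma fit over the 3 comparison ratios, with Benjamini-Hochberg adjustment, called 1 probe of the whole array (0.000748%), which was none of the members. Of the 133709 probes, 7098 had an unadjusted p under 0.05 in this fit. That share is close to the 0.05 that chance alone would give, so the count is not read as a set of near-calls. The fit also takes the comparisons as independent, which they are not, as stated above.

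The order of the peel samples was the same for all 3 transcripts. The mean level was lowest in 2015-P24, followed by 2017-R11, 2015-P31, 2014-P36 and 2014-P24. Among the 3 other models of the same genes, 2014-P36 and 2014-P24 again stood highest, but the high scald samples had another order in each. The step between 2015-P24 and 2017-R11 was 0.26 for HSP17.6CII, 0.24 for MDP0000188935 and 0.30 for MDP0000362505 on the log2 scale, and the channels of these samples overlapped for MDP0000188935. The channels of 2017-R11 and 2015-P31 overlapped for MDP0000362505, and those of 2014-P36 and 2014-P24 for MDP0000188935. The step between the highest high scald sample, 2015-P31, and the lowest low scald sample, 2014-P36, was 1.70, 2.21 and 1.46 for the transcripts in the same order. Channels of a sample are technical repeats of one RNA, so these steps have no error over separate harvests.

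Samples of one phenotype also differed. The level in 2014-P36 minus that in 2014-P24 was -1.35 for HSP17.6CII, -0.68 for MDP0000188935 and -1.12 for MDP0000362505. The level in 2015-P31 minus that in 2015-P24 was 1.10, 0.58 and 0.51 for the same transcripts. Both samples of C2 therefore stood nearer to each other than those of C1 and C3, and C2 had the smallest ratio of the comparisons for 3 of 3 members. The share of all probes with the smallest ratio in C2 was not counted. C2 differed from C1 and C3 in slide, in the labelled plots and in the dim Cy5 channels given above. Among the 13962 probes well above background in all 12 channels, the ratios had an SD of 0.42 for C2, against 0.38 for C1 and 0.50 for C3. For these probes the median absolute gap between dye-swapped arrays was 0.36 for C2, against 0.19 for C1 and 0.17 for C3. The SD of C2 therefore holds more technical spread. The part of slide, orchard and dim channels in the smaller member ratios was not tested.

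Saturation touched the low scald side only. HSP17.6CII was saturated in 1 and MDP0000188935 in 2 of the 6 low scald channels, all of them Cy5 channels of 2014-P24, and no member was saturated in a high scald channel. A saturated intensity is a lower limit. In C1 the array with low scald in Cy5, where both probes were saturated, had the smaller ratio of the pair for both. For MDP0000188935 the ratio of the array with low scald in Cy3 minus that of its dye-swapped partner was -1.34, 0.81 and -0.59 for C1 to C3. The absolute gap lay below 0.58, 1.16 and 0.55 for these comparisons in 95% of the probes above background in all channels. The gaps of MDP0000188935 in C1 and C3 and that of HSP17.6CII in C1, at -0.84, lay above these limits, and those of MDP0000362505, at -0.01, 0.25 and 0.50, lay below them. With saturated spots left out, the mean log2 ratio was -3.39 for HSP17.6CII, -3.31 for MDP0000188935 and -2.44 for MDP0000362505.

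Each chromosome 8 gene was also covered by other gene models, which the study selected on the same samples. MD08G1068000 was reported by MDP0000221160 and MDP0000418416 as well, and MD08G1068200 by MDP0000604702. MDP0000221160 had log2 ratios of -3.58, -1.49 and -3.07 in C1, C2 and C3, with a mean of -2.71 ± 1.09 (SD, n = 3). MDP0000418416 had -2.84, -2.08 and -2.71, with a mean of -2.55 ± 0.40, and was saturated in 3 of the 6 low scald channels. MDP0000604702 had -2.47, -1.21 and -2.44, with a mean of -2.04 ± 0.72. All 6 models had the pattern of 6 lower arrays and a mean of -1 or less, and in all 6 the ratio was smallest in size in C2 and largest in C1. The models of MD08G1068000 did not give one value for the gene: in C2 the ratio of MDP0000221160 was -1.49, against -2.21 for MDP0000188935 and -2.08 for MDP0000418416. The study marked the probes of MDP0000700383 and MDP0000188935 as full matches to their genes and those of MDP0000362505, MDP0000418416 and MDP0000604702 as partial ones. Close paralogues can bind such probes, so the split of the signal between genes is uncertain.

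**Figure D2:**
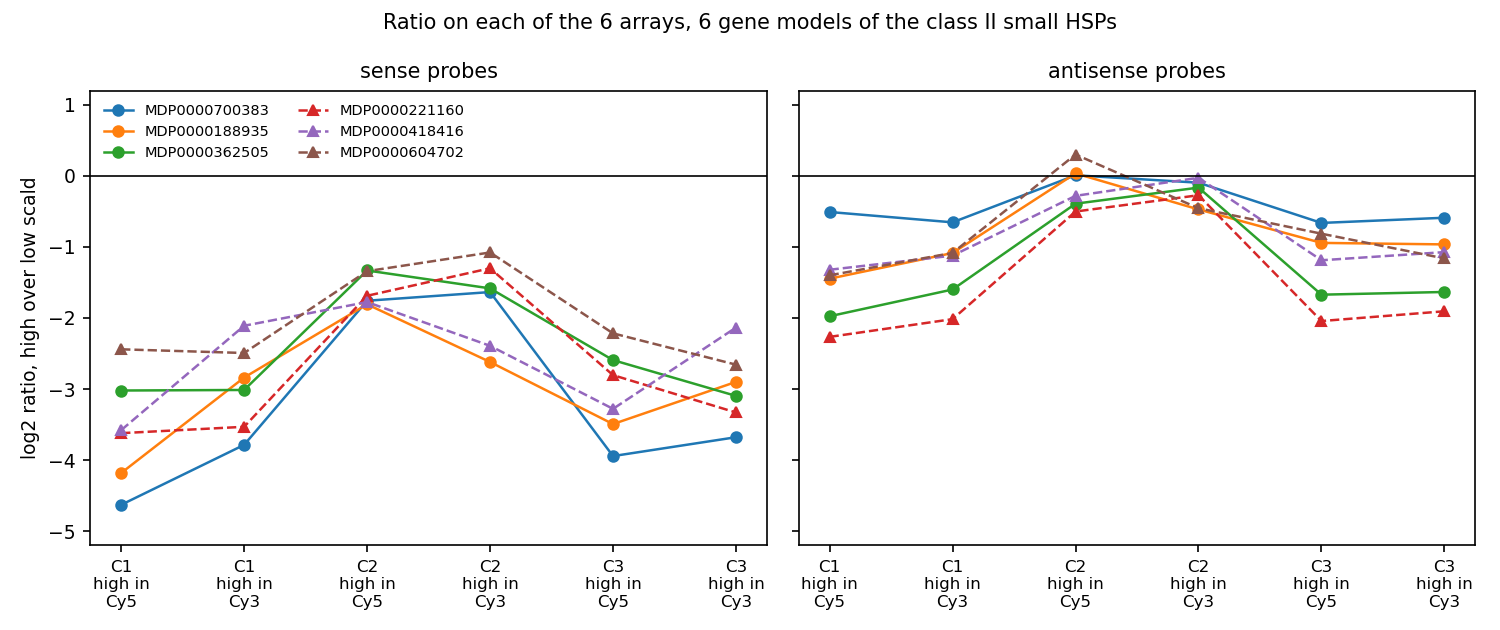
Log2 ratio of high over low scald on each of the 6 arrays, named by comparison and by the dye of the high scald sample, for the sense probes (left) and antisense probes (right) of 6 class II gene models, the 3 members with solid lines and the other models with dashed lines that only guide the eye. All sense ratios lie below -1. The mean of both arrays is smallest in size in C2 for each model, although MDP0000418416 had -2.39 on an array of C2 against -2.11 and -2.14 on an array each of C1 and C3, and the antisense ratios of C2 lie between -0.50 and 0.30.

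The antisense probes were much closer to background. MDP0000700383_r was well above background in 0 of 6 high scald channels and in 5 of 6 low scald channels. For MDP0000188935_r these counts were 2 and 5, and for MDP0000362505_r they were 1 and 5. In each case the low scald channel that did not pass was the Cy5 channel of 2014-P36, one of the dim channels of C2.

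The antisense level of HSP17.6CII was 5.94 and 6.08 in 2015-P24, 6.38 and 6.11 in 2015-P31 and 5.94 and 6.16 in 2017-R11, against 6.45, 6.74, 6.60 and 6.75 in 2014-P24 and 6.37 and 6.21 in 2014-P36. The channels of the phenotypes overlapped through C2. Its log2 ratio was -0.05 in C2, against -0.58 in C1 and -0.63 in C3. None of the high scald channels passed the background threshold, so the size of the difference is uncertain. As measured, the mean antisense level of high scald peel lay 1.34-fold below that of low scald peel, and 1.03-fold below it in C2. Raising each high scald channel to at least the lowest level of any probe above background there did not change the mean fold. That lowest level is not a detection limit.

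MDP0000188935_r had log2 ratios of -1.27, -0.22 and -0.95 for C1 to C3, and its mean was -0.81 ± 0.54 (SD, n = 3). MDP0000362505_r had -1.79, -0.28 and -1.65 in the same order, with a mean of -1.24 ± 0.83. The ratio of MDP0000362505_r was below 0 on 6 of 6 arrays, while those of MDP0000700383_r and MDP0000188935_r were below 0 on 5 of 6, with 0.01 and 0.03 on the remaining array of C2. These antisense values depend on the background correction. With plain subtraction of the local background the mean log2 ratio was -1.69 for MDP0000700383_r, -1.74 for MDP0000188935_r and -3.10 for MDP0000362505_r.

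The antisense probes of the other class II models also had mean ratios below 0, but their levels differed. MDP0000221160_r was well above background in 0 of 6 high scald and 5 of 6 low scald channels, so its fold is uncertain too. As measured, its high scald level lay 2.83-fold below its low scald level, and 1.31-fold in C2. MDP0000604702_r was the only one above background in all 12 channels, and its log2 ratios for C1 to C3 were -1.24, -0.08 and -0.99. Its high and low scald channels overlapped, with a mean level of 8.74 in 2015-P31 against 8.79 in 2014-P24 and 8.82 in 2014-P36. Over all 6 models the median antisense ratio was -0.83.

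**Figure D3:**
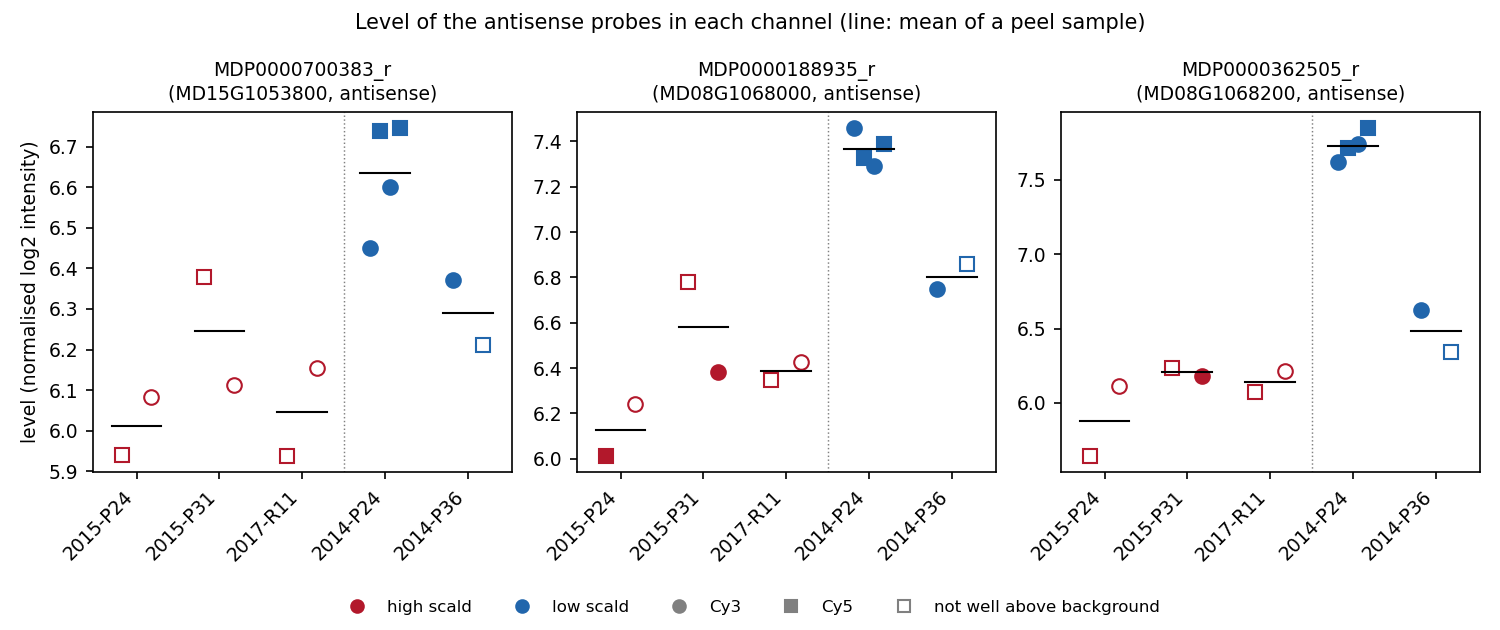
Level (normalised log2 intensity, a separate vertical axis for each probe) of the antisense probes in each channel of the 5 peel samples, high scald in red and low scald in blue, Cy3 as circles and Cy5 as squares, with open symbols where the probe was not well above background and a line at the mean of each sample. The 4 channels of 2014-P24 are the highest for MDP0000188935_r, MDP0000362505_r and MDP0000700383_r, and most high scald channels are open.

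The class II transcripts were set beside the other small HSPs and the HSFs that the study listed for these samples, so these lists are not independent of the contrast either. Of 14 other small HSP transcripts (class I, class III, plastid, mitochondrial, endoplasmic reticulum and a further cytosolic type), 13 were lower in high scald on 6 of 6 arrays with a mean log2 ratio of -1 or less. The exception was the class I transcript MDP0000791550, lower on 5 of 6 arrays with a mean of -1.70. The median log2 ratio was -2.63 for the 6 class II models, -2.60 for these 14 transcripts and -0.00021 over all probes. The class II models report only 3 genes, some of them counted through several models, while each of the 14 transcripts has its own gene. With 1 transcript per gene, that is, for the 3 members alone, the class II median was -2.97. The closeness of the medians of both lists therefore depends on how models are counted. The median of the 14 transcripts moved more with the background correction than that of the 6 class II models. With plain subtraction of the local background the median was -2.74 for the class II models and -3.30 for the 14 transcripts. All 6 class II models were well above background in 6 of 6 high scald channels, but several of the 14 were not. In C2 the median was -1.60 for the class II models and -1.18 for the other small HSPs. In C1 it was -3.26 for the class II models and -3.30 for the others, and in C3 it was -2.96 for the class II models and -3.31 for the others. Medians of the members alone were -3.51 for C1, -1.70 for C2 and -3.20 for C3. These differences between the lists were not tested.

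The HSF family includes the transcription factors that induce small HSP genes. Of 5 HSF transcripts, 4 had the same pattern, and the fifth, MDP0000155667 (HsfB2a), was lower on 6 of 6 arrays with a mean log2 ratio of -0.94. HsfA2, which sustains small HSP expression during heat in Arabidopsis, was reported by MDP0000243895 on chromosome 15, with a mean log2 ratio of -2.61 ± 1.01 (SD, n = 3), and by MDP0000489886 on chromosome 8. The ratios of MDP0000243895 were -3.14, -1.44 and -3.24 for C1 to C3, and it was well above background in 3 of 6 high scald channels. MDP0000489886 was above background in 0 of 6 high and 5 of 6 low scald channels, so the size of its difference is uncertain. Raising high scald channels to at least the lowest level of any probe above background there put their mean 3.29-fold below low scald peel. C2 had the smallest ratio for 14 of 14 other small HSPs and 5 of 5 HSFs, as it had for the class II models. The antisense probes of the HSFs (5 of 5) and of 5 of the 14 other small HSPs were well above background in no channel, which leaves their ratios near 0, so that their antisense medians are not set against that of the class II models, of which 0 of 6 lacked antisense signal in every channel.

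**Figure D4:**
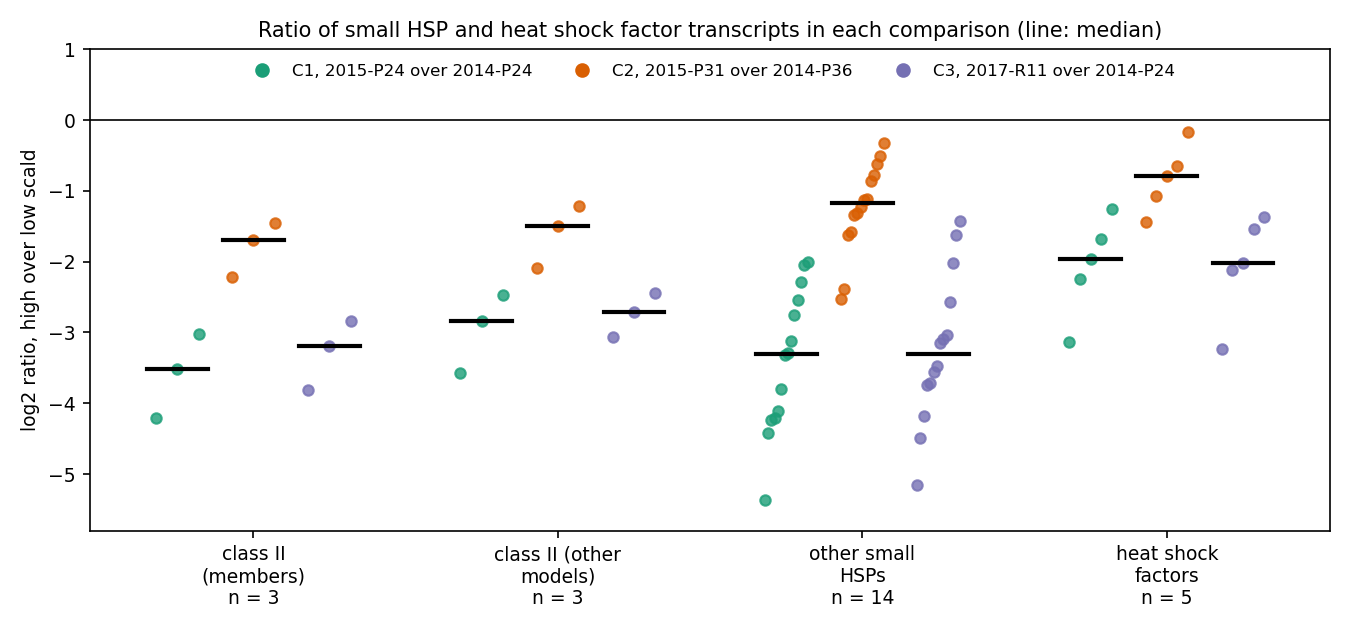
Log2 ratio of high over low scald in each of comparisons C1, C2 and C3 for the 3 members, the 3 other models of the same genes, 14 other small HSPs and 5 heat shock factors, 1 point per transcript and a line at the median. All points lie below 0, and in each list the median of C2 is the nearest to 0, from -0.80 for the heat shock factors to -1.70 for the members.

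The 3 members had nearly the same profile over the 12 channels, with Pearson coefficients of 0.967 between HSP17.6CII and MDP0000188935, 0.987 between HSP17.6CII and MDP0000362505 and 0.954 between MDP0000188935 and MDP0000362505. The channels come from 5 peel samples and 6 arrays, so the coefficients rest mostly on the difference between the phenotypes. Among 25030 other probes that were well above background in at least 6 channels and saturated in none, the 5 most like the mean of the members were MDP0000265157 (r = 0.987), MDP0000465593 (0.986), MDP0000177640 (0.985), MDP0000290737 (0.982) and MDP0000574524 (0.981). MDP0000265157 and MDP0000574524 are class I small HSPs, with mean log2 ratios of -2.57 and -4.30. The second of these was well above background in only 3 of 6 high scald channels, so the size of its ratio is uncertain. The other three are matched to one Arabidopsis gene of the RING zinc finger family, and their mean log2 ratios were -2.90, -2.36 and -2.24 in the order given.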

How the data were processed

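For each of 12 channels the authors deposited spot and local background intensity values on a linear scale, extracted from the scanner images with Agilent Feature Extraction. The values used are means over the pixels of a spot, from which no background had been subtracted. The authors also deposited a table of lowess-normalised log2 values per probe, used as an alternative. Its columns had medians of 5.45 to 5.63 and had Pearson coefficients of 0.976 to 1.00 with the raw median intensities of their channels on the log2 scale. The study states that normalised values were background-corrected for its estimates of expression level. It does not itself give the method or say whether this applies to the deposited table.

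Intensities were corrected with normexp (offset 50) and loess (span 0.3, 4 iterations) in limma 3.58.1 under R 4.3.3 (with statmod 1.5.0 and version 1.17.8 of data.table). Control and outlier spots had weight 0, outlier spots were left out and saturated spots kept. Spots of a probe were averaged, each ratio was given as high over low scald after the dyes in the labels, and both arrays of a comparison were then averaged. Levels came from single channels after Aquantile. For the background share, lmFit with an intercept and eBayes were run on the 3 ratios over 133709 probes and p-values were adjusted by Benjamini-Hochberg, with calls at 0.05 or below. The calculation was tested on simulated data. Pairing is by array, since each ratio sets both samples of 1 array against each other. The 26 alternatives changed background correction, normalisation, spot filters, source of values, error model, dyes, comparisons and arrays. Figures were drawn with Python 3.11.15, numpy 2.4.6 and matplotlib 3.10.9.

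The precision is limited by 3 comparisons of 5 peel samples. The members and lists were chosen with earlier results of these data known. The text names the members and their antisense probes, the other models of the same chromosome 8 genes, at most 4 listed transcripts, and the 5 probes with the most similar profile. MD gene names follow the study's match to the GDDH13 genome. Probe, promoter and protein sequences were not used here.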

Additional observations from a re-analysis of the deposited data

How the results depend on the processing

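The mean log2 ratios of the 3 members stayed negative and moved by less than 1 SD over the comparisons under all 26 alternatives. For part of the alternatives the small shift was fixed in advance. Leaving out 1 of 3 comparisons cannot move their mean by 1 SD. Separate arrays, a random block for the comparison and a filter on probes above background return the same member ratios. The ratios ranged between -4.01 and -2.75 for HSP17.6CII, between -3.35 and -2.71 for MDP0000188935 and between -2.93 and -2.15 for MDP0000362505, and in each case the extremes came from leaving out C2 and C1. With no replicate block, that is, with the 5 peel samples unpaired, the ratios were -3.01, -2.86 and -2.25. The antisense ratios kept their sign. Beyond the plain subtraction given above, normexp with offset 10 gave -0.88 for MDP0000700383_r, -1.31 for MDP0000188935_r and -2.06 for MDP0000362505_r, and plain subtraction moved the median of the class I small HSPs to -3.72 and that of the HSFs to -2.64.

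The limma count of called probes (1) was 20 with offset 10, 432 with the 6 arrays as separate ratios and 457 with a random block for the comparison. It was 0 with plain subtraction, median centring, no normalisation, quantile normalisation, outlier spots used, the slide as a block, either dye orientation alone and no replicate block, and 0 to 1 when a comparison or array was left out. The 222 probes lower on all arrays with a mean of -1 or less became 1333 with plain subtraction, 367 with offset 10, 102 with median centring and 77 with no normalisation, and 193 to 350 when a comparison or array was left out, highest without C2. The causes were not tested. Antisense signals near background limit those ratios, and saturation limits the levels of HSP17.6CII and MDP0000188935 in 2014-P24.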
